A study of Mus musculus with 2 samples.

Results

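The CC chemokines and receptors described here were 9 genes of the 32285 in the expression matrices, taken by gene symbol: the 7 chemokines Ccl2, Ccl7, Ccl8, Ccl3, Ccl4, Ccl6 and Ccl9, and the 2 receptors Ccr1 and Ccr2. The rule uses no measured value, and each of the 9 had more than 200 UMIs (unique molecular identifiers, the counted RNA molecules) over the kept cells. Single-cell RNA sequencing was performed on cells from the calvarial defect site of C57BL/6 mice (C57BL/6J in the study's methods), harvested at day 7 after injury as a piece of skull with an edge of about 3 mm around the defect. The GA group received gambogic amide, a small molecule agonist of the receptor TrkA, at 1.2 mg/kg in 10% DMSO by intraperitoneal injection of 100 µL, and the control group received the 10% DMSO vehicle alone. Injections began 24 h before injury and were given daily for 1 week, per the labels. The study's methods describe the piece as a circle of bone measuring 3 mm across, centred on the defect. They also describe young adult male wild-type mice, several pooled per group, and give another dose and course.

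Each group was therefore 1 library of pooled animals, so no test between GA and control was possible, and intervals throughout are 95% intervals that cover counting error only. The GA library kept 8376 cells with a median of 10929.5 UMIs per cell, and the control library 7555 cells with a median of 16336. Cells were grouped by clustering that did not use CC chemokine or receptor genes, and all but 1 of 35 clusters received a cell class name from marker genes, written with "-like". Levels are CPM, the UMIs of a gene scaled to 1e6 UMIs of all cells of a class in a library, with the exact Poisson interval. CPM values are not corrected for gene length, and the assay reads the 3′ end of each RNA per the study's methods. Neutrophil-like cells made up 52.8% of kept GA cells (51.7% to 53.8%) and 27.6% of control cells (26.6% to 28.6%), while mesenchymal-lineage cells (mesenchymal-like and osteoblast-like) made up 10.3% and 23.2%. The libraries shared 23 cell barcodes, 19 of them among kept cells.

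CC chemokines are small secreted proteins that guide leukocytes through G protein-coupled receptors. CCL2 and CCL7 are the main ligands of CCR2, the receptor by which Ly6C-high monocytes leave the marrow and enter injured tissue, and mouse CCL8 mainly engages CCR8. CCL3 (MIP-1α) and CCL4 (MIP-1β) attract macrophages and lymphocytes, and CCL3 engages CCR1. CCL6 and CCL9 are rodent chemokines that also engage CCR1. In bone repair these signals are known for bringing in monocytes and osteoclast precursors.

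On the mouse genome (mm10, GENCODE vM21), the 7 chemokine genes lie on chromosome 11 in a pair of groups. Ccl2 (82035571 to 82037453), Ccl7 (82045712 to 82047525) and Ccl8 (82115185 to 82116799), all on the plus strand, lie within 81.2 kb. Ccl9 (83572919 to 83578636, minus strand), Ccl6 (83587882 to 83593087, minus), Ccl3 (83647844 to 83649355, minus) and Ccl4 (83662584 to 83664683, plus) lie within 91.8 kb. The receptor genes lie on chromosome 9, Ccr1 at 123962124 to 123968692 on the minus strand and Ccr2 at 124101950 to 124113557 on the plus strand.

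The chemokines are described by their groups on the chromosome, as a stromal and macrophage set (Ccl2, Ccl7 and Ccl8) and a myeloid set (Ccl3, Ccl4, Ccl6 and Ccl9). The grouping was not derived from the levels, but the names describe where the genes were found. They do not set macrophages apart, since macrophage-like cells carried transcripts of both sets. Across 11 cell classes with at least 50 cells in each library, taken as 22 points, the log2(CPM + 1) of Ccl2 and Ccl7 had a Pearson r of 0.964, and that of Ccl8 had 0.926 with Ccl2 and 0.939 with Ccl7. Within the myeloid set r ran from 0.613 (Ccl4 and Ccl9) to 0.900 (Ccl3 and Ccl4), and between the sets from 0.217 (Ccl2 and Ccl4) to 0.635 (Ccl2 and Ccl9). The ranges thus overlapped at Ccl9. Basophil- or mast-like and osteoclast-like cells were too few to be among these classes. Ccl6 and the receptor Ccr1 had r = 0.922. These are descriptions, since points of a library share its depth and free RNA and both points of a class share a cell type.

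**Figure D1:**
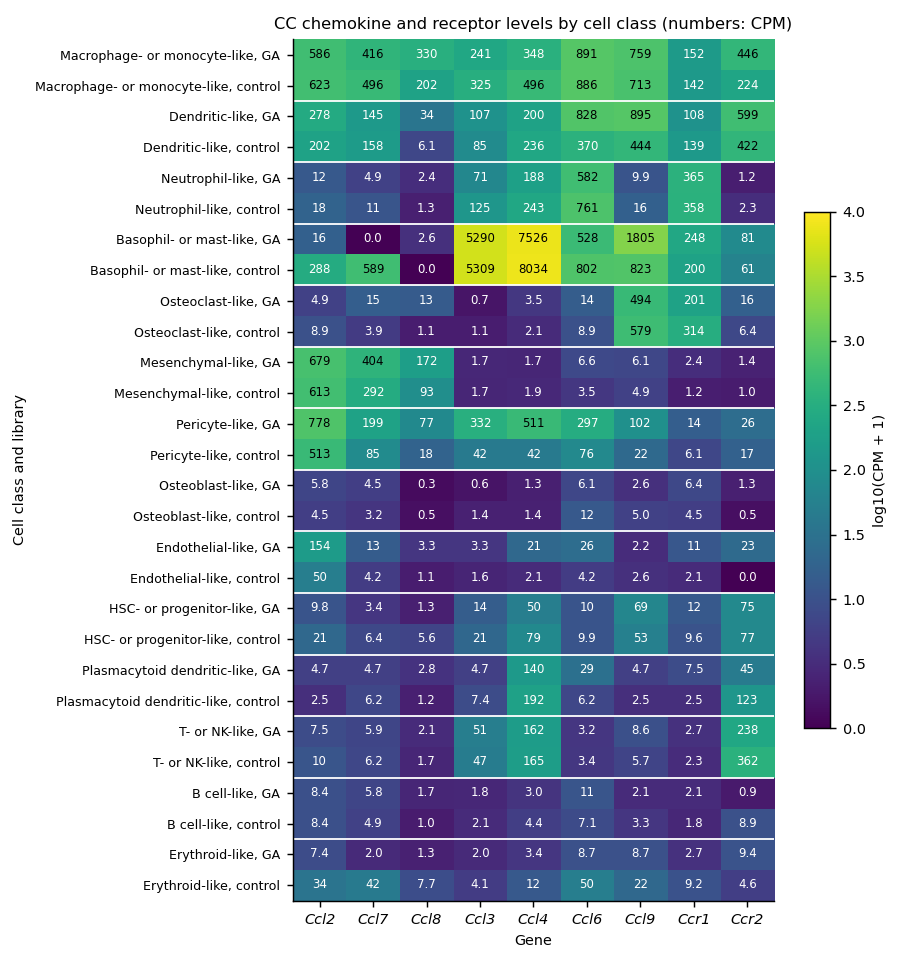
Level of each CC chemokine and receptor (columns, CPM, colour on a log10(CPM + 1) scale) in 14 cell classes (rows, the GA library above the control library). Ccl2, Ccl7 and Ccl8 were high in macrophage-like and mesenchymal-like cells, and Ccl3 and Ccl4 in basophil- or mast-like cells with 5290 to 8034 CPM. Among these whole classes, Ccr1 was highest in neutrophil-like cells and Ccr2 in dendritic-like cells.

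Ccl2, the monocyte attractant MCP-1, was carried mainly by mesenchymal-like and macrophage-like cells. In mesenchymal-like cells it stood at 679 CPM in GA (672 to 687) and 613 CPM in control (608 to 618), and in macrophage-like cells (macrophages and monocytes together) at 586 CPM (577 to 594) and 623 CPM (615 to 630). In control the intervals of both classes overlapped, so their order was not resolved there. Intervals cover counting error only, and the highest class for Ccl2 changed with the processing. It was the macrophage-like class without batch correction, at clustering resolution 2, with at least 2000 UMIs per cell, or with cells thinned to 2000 UMIs. The order is therefore not read in GA either. Dendritic-like cells held 278 and 202 CPM, and the 39 GA and 46 control endothelial-like cells 154 and 50.2 CPM. B cell-like cells gave 8.39 and 8.38 CPM, which is used as a guide to the level of free RNA in cells of their depth. Whether B cell-like cells made some Ccl2 themselves was not tested. Osteoblast-like cells stood at 5.77 CPM in GA and 4.51 CPM in control. They were deeper, with a median of 43771 and 42428 UMIs per cell against 6472 and 5913 in B cell-like cells. Without thinning, 19.7% and 17.65% of them had a Ccl2 UMI, against 8.38% and 8.13% of B cell-like cells. Whether these UMIs were free RNA cannot be told from CPM.

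Ccl7 (MCP-3), a close relative of Ccl2, followed the same classes. Macrophage-like cells held 416 CPM in GA and 496 CPM in control, and mesenchymal-like cells 404 and 292 CPM. Ccl8 (MCP-2) was lower, at 330 and 202 CPM in macrophage-like cells and 172 and 93.3 CPM in mesenchymal-like cells, and no other class of 100 or more cells exceeded 77.4 CPM. Taking all kept cells, mesenchymal-lineage cells supplied 58.0% of the Ccl2 UMIs of the GA library (57.6% to 58.4%) and 67.7% of those of the control library (67.4% to 68.1%). Most Ccl2 transcripts in both libraries were thus in stromal rather than immune cells.

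Single cells that held Ccl2 tended to hold Ccl7. After each cell was thinned to 2000 UMIs, 34.5% of GA and 34.9% of control macrophage-like cells had a Ccl2 UMI (66.3% and 68.4% without thinning), against 1.54% and 2.43% of B cell-like cells at the same depth. Both genes were seen together in 18.2% of GA and 20.9% of control macrophage-like cells, which is 2.16 and 2.08 times the product of their single shares. In mesenchymal-lineage cells the same ratio was 1.76 and 1.92. Transcripts were concentrated in few cells: the top 1% of all cells carried 39.1% of Ccl2 UMIs in GA and 27.2% in control, and 54.1% and 42.7% of Ccl8 UMIs.

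Ccl3 and Ccl4 were highest per cell in the rare basophil- or mast-like class of 33 GA and 36 control cells. Its Ccl3 level was 5290 CPM in GA (5062 to 5526) and 5309 CPM in control (5078 to 5547), and its Ccl4 level 7526 CPM (7254 to 7806) and 8034 CPM (7750 to 8326). This class made up 0.394% and 0.477% of cells and carried 14.4% and 11.03% of all Ccl3 UMIs. Over the whole class, the interval of the log2 ratio of GA to control for Ccl3, -0.09 to 0.09, held 0.

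The class held 2 kinds of cell with separate chemokines, a split made after the values were seen. In control, 8 cells had more UMIs of the mast cell protease genes Cma1, Mcpt4 and Tpsb2 than of the basophil protease genes Mcpt8 and Prss34. These 8 cells held Ccl2 at 1509 CPM (1235 to 1825) and Ccl7 at 3103 CPM (2704 to 3543), and had 0 UMIs of Ccl3, Ccl4 and Ccl9, where 3 UMIs would be 42.7 CPM. The other 28 control cells, with the basophil genes, showed the reverse, with Ccl4 at 9884 CPM, Ccl3 at 6531 CPM, Ccl2 at 6.55 CPM and Ccl7 at 9.83 CPM. In GA, 32 of the 33 cells carried mainly the basophil genes and held Ccl4 at 7577 CPM and no Ccl7 UMI, so the class difference in Ccl7 (0 UMIs in GA, 221 in control) went with the mast-marked cells, of which GA had 1. That single GA cell held 37 Ccl3 UMIs and no Ccl2 or Ccl7 UMI. Among the cells with mainly basophil genes, Ccl3 was lower in GA than in control. It stood at 5293 CPM in GA (5063 to 5531) and 6531 CPM in control (6248 to 6824).

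Macrophage-like cells carried the largest share of both transcripts, with 55.7% of Ccl3 UMIs in GA and 72.2% in control, and 45.4% and 67.5% of Ccl4 UMIs. Ccl3 stood at 241 CPM in GA and 325 CPM in control there, and Ccl4 at 348 and 496 CPM. Neutrophil-like cells held 71.1 and 125 CPM of Ccl3 and 188 and 243 CPM of Ccl4, and T- or NK-like cells held Ccl4 at 162 and 165 CPM. Mesenchymal-like cells lay at 1.69 to 1.86 CPM for both genes, beside 1.83 to 4.44 CPM in the shallower B cell-like cells. The median depth was 52460.5 and 51577.5 UMIs in mesenchymal-like and 6472 and 5913 UMIs in B cell-like cells. The same cells often held both: in neutrophil-like cells at 2000 UMIs, 3.58% of GA and 4.96% of control cells had both genes, 4.62 and 3.77 times the product of the single shares.

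Ccl6 and Ccl9 (MIP-1γ) are neighbours on the chromosome and were both high in macrophage-like cells, but only Ccl6 was also high in neutrophil-like cells. Ccl6 stood at 891 CPM in GA (881 to 901) and 886 CPM in control (877 to 895) in macrophage-like cells, and at 582 and 761 CPM in neutrophil-like cells. Ccl9 stood at 759 and 713 CPM in macrophage-like cells and at 9.89 and 15.7 CPM in neutrophil-like cells. At 2000 UMIs per cell, 52.3% of GA and 58.4% of control neutrophil-like cells had a Ccl6 UMI, against 2.41% and 3.35% with a Ccl9 UMI. By class, Ccl9 was highest in basophil- or mast-like cells, at 1805 CPM in GA (1673 to 1945) and 823 CPM in control (734 to 920). Their log2 ratio was 1.13 (0.94 to 1.33), and they carried 2.20% and 0.894% of all Ccl9 UMIs. In those with mainly basophil genes Ccl9 stood at 1824 and 1013 CPM. Ccl9 was also found in osteoclast-like cells, at 494 CPM in 30 GA cells and 579 CPM in 58 control cells, where Ccl6 was at 13.9 and 8.95 CPM.

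The start regions of Ccl6 and Ccl9 are shown because these neighbours differed in neutrophil-like cells, and that of Ccl3 because it stands for the remaining myeloid set. RefSeq promoter sequences (GRCm38.p6) were matched for 6 of the 9 genes. The 250 bases before each start, read 5′ to 3′ on the gene's own strand, are given with capitals at matches on either strand to an NF-κB type pattern (GGG, any 5 bases, CC), to GAGGAA (PU.1 type) or to TTGCNNAA (C/EBP type), which overlapped at no base here.
Ccl6, chr11:83593088-83593337, minus strand: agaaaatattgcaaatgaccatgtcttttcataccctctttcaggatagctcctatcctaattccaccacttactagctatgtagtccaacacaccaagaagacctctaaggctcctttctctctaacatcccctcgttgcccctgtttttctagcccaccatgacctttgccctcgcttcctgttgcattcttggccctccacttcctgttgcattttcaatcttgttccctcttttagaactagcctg
Ccl9, chr11:83578637-83578886, minus strand: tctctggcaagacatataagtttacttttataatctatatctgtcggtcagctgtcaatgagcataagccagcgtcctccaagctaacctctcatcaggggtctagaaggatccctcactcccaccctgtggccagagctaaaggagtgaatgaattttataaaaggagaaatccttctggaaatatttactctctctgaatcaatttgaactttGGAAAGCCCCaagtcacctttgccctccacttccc
Ccl3, chr11:83649379-83649628, minus strand: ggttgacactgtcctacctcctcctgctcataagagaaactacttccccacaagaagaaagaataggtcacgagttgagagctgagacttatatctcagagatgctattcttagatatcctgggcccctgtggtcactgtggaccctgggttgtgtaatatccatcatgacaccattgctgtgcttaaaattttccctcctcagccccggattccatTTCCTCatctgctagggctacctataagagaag
Ccl6 held none of the patterns, Ccl9 held 1 match to the NF-κB type pattern and Ccl3 held 1 match to GAGGAA. Of 32851 promoter windows of the same length, 45.8% held the NF-κB type pattern, 23.25% GAGGAA and 9.56% TTGCNNAA. A match is a run of letters and not a shown binding site.

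Ccr1, a receptor for Ccl3, Ccl6 and Ccl9, was highest in neutrophil-like cells, at 365 CPM in GA (360 to 371) and 358 CPM in control (349 to 367). Osteoclast-like cells held 201 CPM in GA (179 to 226) and 314 CPM in control (294 to 335), basophil- or mast-like cells 248 and 200 CPM, and macrophage-like cells 152 and 142 CPM. In GA the intervals of the basophil- or mast-like and osteoclast-like classes overlapped, and in control those of macrophage-like and dendritic-like cells did. B cell-like, T- or NK-like, osteoblast-like and mesenchymal-like cells lay between 1.18 and 6.42 CPM. At 2000 UMIs per cell, 55.6% of GA and 53.8% of control neutrophil-like cells had a Ccr1 UMI (89.7% and 79.7% without thinning), against 0.515% and 0.521% of B cell-like cells.

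Among whole classes, Ccr2, the receptor for Ccl2 and Ccl7, was highest in dendritic-like cells, at 599 CPM in GA (574 to 625) and 422 CPM in control (406 to 438). Macrophage-like cells held 446 CPM in GA and 224 CPM in control, and T- or NK-like cells 238 and 362 CPM, so the order of these classes differed between the libraries. The Ly6c2 monocyte-like part of the macrophage-like class, described below, held more Ccr2 than dendritic-like cells in both libraries. Neutrophil-like cells held only 1.19 CPM in GA and 2.30 CPM in control, and mesenchymal-like cells 1.38 and 1.03 CPM. Macrophage-like and dendritic-like cells thus held both receptors. At 2000 UMIs, a Ccr2 UMI was seen in 44.1% of GA and 26.2% of control macrophage-like cells and in 0.296% and 0.194% of neutrophil-like cells, which was not above the B cell-like share of 0.343% and 0.521%. Without thinning, the share in macrophage-like cells was 65.7% and 43.9%, at a median of 21592 and 21376 UMIs per cell.

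**Figure D2:**
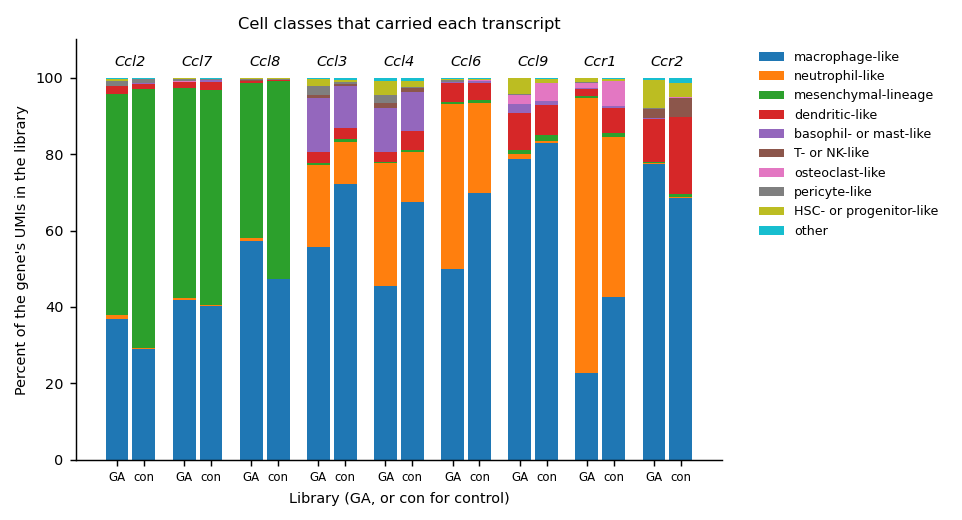
Percent of each gene's UMIs carried by each cell class (stacked bars) in the GA and control libraries. Ccl2, Ccl7 and Ccl8 came from mesenchymal-lineage and macrophage-like cells, and the neutrophil-like share of Ccr1 was 71.9% in GA and 42.0% in control.

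The share of several transcripts that neutrophil-like cells supplied was higher in GA. Neutrophil-like cells carried 71.9% of Ccr1 UMIs in GA (71.3% to 72.5%) and 42.0% in control (41.2% to 42.9%), and 43.0% and 23.45% of Ccl6 UMIs. For Ccl4 their share was 32.2% in GA and 12.9% in control. Over all kept cells Ccr1 stood at 136 CPM in GA and 72.4 CPM in control, a log2 ratio of 0.90 (0.87 to 0.94). When this was split by class, 0.88 came from the classes' shares of UMIs and 0.03 from levels within classes. For Ccl2, at 323 CPM in GA and 469 CPM in control over all cells, the log2 ratio of -0.54 was made up of -0.61 from shares and 0.07 from levels. Ccr2 differed from both: its log2 ratio of 0.72 was made up of -0.05 from shares of classes and 0.77 from levels within them.

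Few of these genes lay 2-fold apart between the libraries over all cells or within the 3 largest lineages. Over all cells none of the 9 was 2-fold higher or lower in GA, where 3.17% of 15318 genes with at least 200 UMIs were higher and 6.90% were lower by that much. In macrophage-like cells none of 9 passed in either direction, against 4.82% of 10494 genes higher and 1.52% lower in GA, although Ccr2 lay at the limit with a fold of 1.99 and passed it under some settings. In neutrophil-like cells 7 of the 9 had 200 UMIs and 1, Ccl7, was 2-fold lower in GA, against 0.872% of 8254 genes lower and 0.218% higher. In mesenchymal-lineage cells 8 had 200 UMIs and 1, Ccr1, was 2-fold higher in GA, against 1.75% of 12825 genes higher and 1.72% lower.

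Both genes past 2-fold were at very low levels. Ccl7 in neutrophil-like cells was at 4.89 CPM in GA and 10.5 CPM in control, beside 5.79 and 4.93 CPM in B cell-like cells. Ccr1 in mesenchymal-lineage cells was at 2.62 CPM in GA and 1.26 CPM in control, beside 2.13 and 1.81 CPM in B cell-like cells. The mesenchymal-lineage cells were deeper, at a median of 50997 and 51246 UMIs, so the B cell-like CPM sets no background for them. Without thinning, 8.43% and 5.03% of them had a Ccr1 UMI, against 1.88% and 1.56% of B cell-like cells. Without the 5 cells with most UMIs of the gene in each library, neither Ccl7 nor Ccr1 stayed past 2-fold. With the lowest class level of the library subtracted as free RNA, the log2 ratios were -1.86 for Ccl7, with 154 UMIs left, and 2.77 for Ccr1, with 30 UMIs left, both under the minimum of 200 UMIs.

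In macrophage-like cells the 9 genes had a median log2 ratio of 0.01, beside 0.11 over all genes tested there. Ccr2 was higher in GA with a log2 ratio of 0.99 (0.95 to 1.03), and Ccl8 with 0.71 (0.67 to 0.75). Ccl4 was lower with -0.51 (-0.54 to -0.48), Ccl3 with -0.43 (-0.47 to -0.39) and Ccl7 with -0.26 (-0.29 to -0.22). Ccl2, Ccl6, Ccl9 and Ccr1 lay between -0.09 and 0.10. With predicted doublets kept, Ccl3, Ccl4 and Ccl7 turned to 0.08, 0.13 and 0.38, and Ccl7 also turned to between 0.15 and 0.19 without batch correction, at clustering resolution 2 and with at least 2000 UMIs per cell. With each cell thinned to 2000 UMIs, the Ccr2 ratio was 0.60. Relative to the median of all genes, Ccl6, Ccl9 and Ccr1 turned to -0.11, -0.02 and -0.02, so no direction is read for them. None is read for Ccl2 either, which kept its direction under 6 of 11 alternatives and ran from -0.20 to 0.48.

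**Figure D3:**
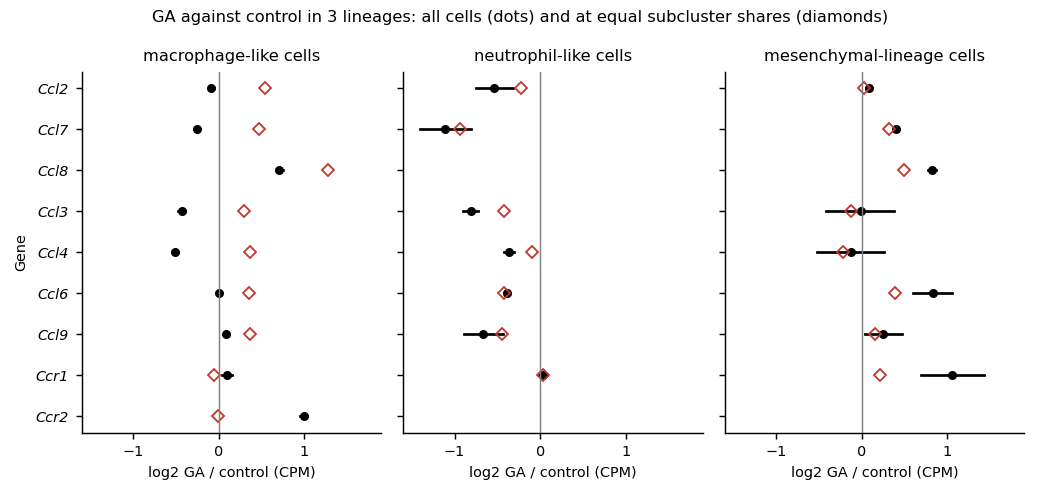
log2 ratio of GA to control CPM for each gene with at least 200 UMIs (rows) in macrophage-like, neutrophil-like and mesenchymal-lineage cells. Black dots with bars show all cells of the class with the 95% counting interval (the bar is hidden where shorter than the dot), and red diamonds the ratio with each subcluster given the same share of UMIs in both libraries. In macrophage-like cells Ccr2 moved from 0.99 to -0.01 and Ccl2 from -0.09 to 0.54.

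Macrophage- and monocyte-like cells were split into 18 subclusters, again without CC genes, and the subcluster highest in Ccr2 was not among the 5 highest in Ccl2 in either library. Ccr2 was highest in subclusters named by the Ly6c2 monocyte markers. In the one with Chil3 and Plac8 among its leading genes it stood at 1384 CPM in GA and 1596 CPM in control, and Ccl2 at 94.5 and 64.1 CPM. In the one led by Vcan it stood at 694 CPM in GA and 831 CPM in control, with Ccl2 at 84.2 and 221 CPM. Dividing cells led by Hist1h1b held Ccr2 at 722 and 782 CPM. Cells named by C1q markers held Ccl2 at 1070 CPM in GA and 1425 CPM in control and Ccr2 at 138 and 58.1 CPM. The interferon-like subcluster held both, with Ccl2 at 743 CPM in GA and 792 CPM in control and Ccr2 at 479.5 and 613.5 CPM. Over the 17 subclusters with at least 10 cells, log2(CPM + 1) of Ccl2 and Ccr2 had a Pearson r of -0.54 in GA and -0.46 in control, given as a description over subclusters of the same libraries.

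Cell by cell, the pair was counted at 2000 UMIs. In macrophage-like cells Ccl2 and Ccr2 were seen together in 10.5% of GA cells, 0.69 times the product of their shares, and in 6.83% of control cells, 0.75 times. Of the cells with a Ccr2 UMI, 23.9% in GA and 26.1% in control had a Ccl2 UMI.

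**Figure D4:**
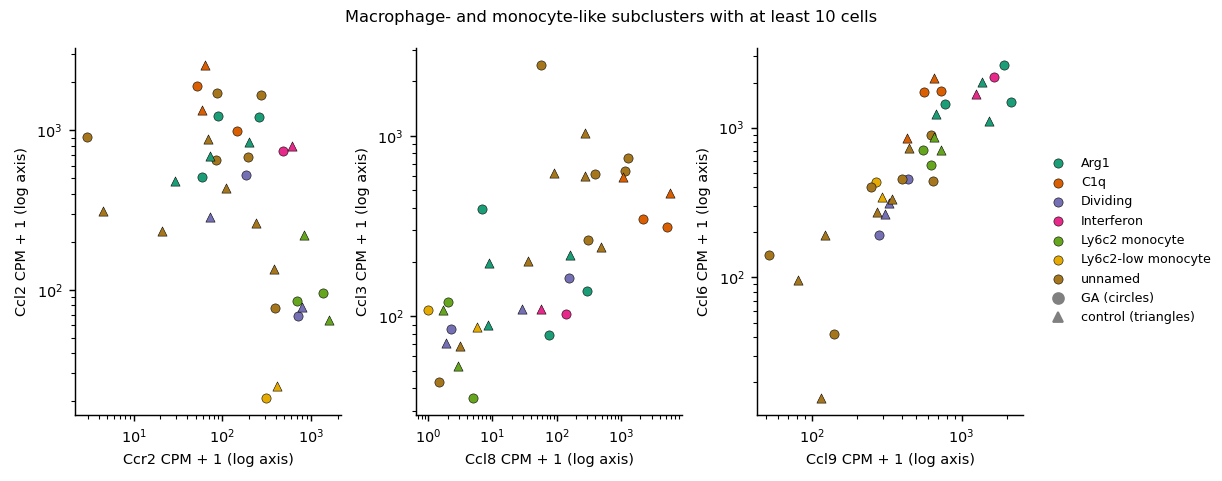
Levels in macrophage- and monocyte-like subclusters with at least 10 cells (points; circles GA, triangles control; colour, the subset named by markers; log axes of CPM + 1) for Ccl2 against Ccr2, Ccl3 against Ccl8, and Ccl6 against Ccl9. Ly6c2 monocyte-like subclusters sat at high Ccr2 and low Ccl2, C1q-like ones at the highest Ccl8, and Arg1-like ones at high Ccl6 and Ccl9.

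The chemokines were highest in different macrophage subsets, with Ccl6 and Ccl9 sharing theirs and Ccl3 and Ccl4 sharing another. Ccl8 was highest in C1q-like cells, at 2478 CPM in GA and 1435 CPM in control, and within them in the small subcluster led by Cd209f, Cd209g and Cd163 of 10 GA and 12 control cells, at 5249 CPM (4933 to 5581 by counting) and 5812 CPM. Ly6c2 monocyte-like cells held Ccl8 at 2.95 and 1.14 CPM. Ccl6 was highest in interferon-like and Arg1-like cells (2194 and 1894 CPM in GA, 1681 and 1519 CPM in control), as was Ccl9 (1633 and 1696 CPM in GA, 1247 and 1235 CPM in control). Ccl3 and Ccl4 were highest in a subcluster without a name, led by Nav3, Cd5l and Serpine2, with 19 GA and 61 control cells: Ccl3 stood at 2472 and 1037 CPM, and Ccl4 at 4369 and 2301 CPM. Ccr1 was highest in the monocyte-like subcluster led by Vcan, at 484 CPM in GA and 431 CPM in control, and lay at 68.4 and 73.8 CPM in C1q-like cells.

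The Ccr2 difference of the macrophage-like class went with the make-up of the class. Ly6c2 monocyte-like cells were 20.7% of its GA cells (18.5% to 23.0%) and 11.65% of its control cells (10.2% to 13.2%), and dividing cells were 19.98% and 8.81%. Within the Ly6c2 monocyte-like cells Ccr2 stood at 967 CPM in GA and 1145 CPM in control. Of the log2 ratio of 0.99, 0.98 came from subcluster shares of UMIs and 0.01 from levels within subclusters. With the same shares in both libraries, a comparison added after the data were seen, the ratio was -0.01.

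The ligands moved the other way under the same weighting. At equal subcluster shares the log2 ratio was 0.54 for Ccl2, 0.48 for Ccl7, 1.28 for Ccl8, 0.30 for Ccl3, 0.36 for Ccl4, 0.36 for Ccl6 and 0.36 for Ccl9, all higher in GA. The median over all genes, 0.11 in this class without the weighting, is not given here at equal shares. The shared direction is therefore not read as particular to these genes. Subclusters were not of one direction: of the 16 with at least 200 Ccl2 UMIs, 10 had a higher level in GA and 6 a lower one, with log2 ratios from -1.39 to 2.67. For Ccl8, 8 of 10 were higher in GA, with the subcluster led by Cxcl3 and Hbegf at 1270 CPM in GA and 271 CPM in control. For Ccl6 and Ccl9, 11 of 15 were higher. C1q-like subclusters went against this for Ccl2, with 988 CPM in GA and 1329 CPM in control in the larger of them.

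In neutrophil-like cells the median log2 ratio of the 7 genes with 200 UMIs was -0.54, beside -0.14 over all genes tested. That median is the ratio of Ccl2, a gene at a low level here. Ccl3 had a log2 ratio of -0.81 (-0.90 to -0.73), Ccl6 of -0.39 (-0.42 to -0.36) and Ccl4 of -0.37 (-0.42 to -0.31), and Ccr1 of 0.03 (-0.01 to 0.08). Relative to the median of all genes, these were -0.68, -0.25, -0.23 and 0.17. Ccl2, Ccl7 and Ccl9 were also lower in GA but lay under 18 CPM in both libraries. Without the 5 cells with most UMIs of the gene in each library, the Ccl2 ratio was -0.025 and the Ccl4 ratio -0.17. In control, 5 cells held 41.6% of the Ccl2 UMIs of neutrophil-like cells.

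**Figure D5:**
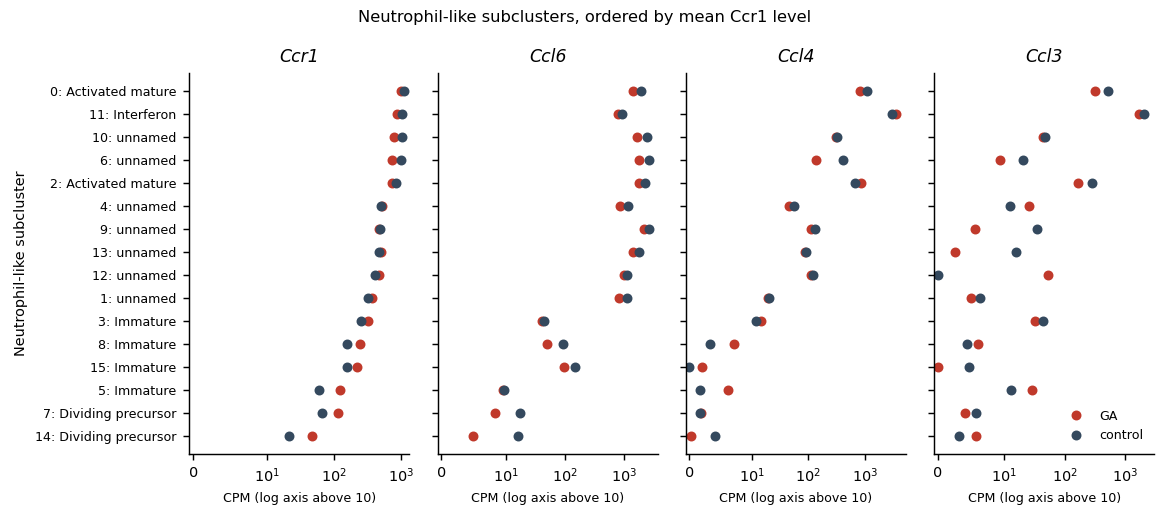
Levels (CPM, log axis above 10) of Ccr1, Ccl6, Ccl4 and Ccl3 in the 16 neutrophil-like subclusters, ordered by mean Ccr1 level, for the GA (red) and control (dark) libraries. Ccr1 and Ccl6 were lowest in dividing precursor-like and immature-like cells, Ccl3 and Ccl4 were highest in the interferon-like subcluster, and the Ccl6 level was lower in GA in all 12 subclusters with at least 200 UMIs.

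Ccr1 and Ccl6 were higher in activated mature-like than in immature-like cells, and Ccl3 and Ccl4 were highest in the small interferon-like subcluster, followed by activated mature-like cells. Ccr1 stood at 95.2 CPM in GA and 54.9 CPM in control in dividing precursor-like cells, at 218 and 154 CPM in immature-like cells, and at 876 and 993 CPM in activated mature-like cells. Ccl6 stood at 7.399 and 16.8 CPM, at 32.5 and 50.7 CPM, and at 1603 and 2095 CPM in the same subsets, a wider span than that of Ccr1. Ccl3 was at 1727 CPM in GA (1622 to 1838) and 2085 CPM in control (1955 to 2221) in the interferon-like subcluster, whose leading genes were Clec4n, Csf1, Egr3 and Cxcl10, and Ccl4 at 3560 and 3094 CPM there. These were 127 GA and 118 control cells, or 2.87% and 5.67% of neutrophil-like cells. Activated mature-like cells held Ccl3 at 254 CPM in GA and 436 CPM in control, and immature-like cells at 23.8 and 21.4 CPM. The interferon name depends on the resolution, and Csf1 is itself an activated mature marker. At clustering resolution 2, a neutrophil-like subcluster of 261 cells led by Clec4n, Csf1 and Egr3 was named activated mature-like. The interferon-like subcluster at that resolution held 48 cells and was led by Cxcl10, Ifit1 and Ifit3.

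The neutrophil genes differed in how even the gap between libraries was. Ccl6 was lower in GA in all 12 subclusters with at least 200 UMIs, with log2 ratios from -0.86 to -0.11 and an interval below 0 in 10. Ccl3 was lower in all 4, from -0.80 to -0.27. At equal subcluster shares the Ccl3 ratio over neutrophil-like cells was -0.42. Ccl4 was lower in 4 of 6, with the interval below 0 in 2, and higher in 2, among them the interferon-like one. Ccr1 crossed over: it was higher in GA in the immature-like and dividing subclusters with 200 UMIs, by log2 ratios of 0.34 to 1.02, and lower in both activated mature-like subclusters and the interferon-like one, by -0.11 to -0.28.

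Among mesenchymal-lineage cells, among the named subsets, Ccl2, Ccl7 and Ccl8 were highest in cells named by the Cd34-high markers. Cd34-high cells, led by Pi16 and Clec3b, held Ccl2 at 1317 CPM in GA and 1479 CPM in control, Ccl7 at 770 and 801 CPM, and Ccl8 at 385 and 310 CPM. One of their subclusters, of 55 GA and 160 control cells, reached 2891 CPM of Ccl2 in GA and 2096 CPM in control. Another, of 125 GA and 148 control cells, held 3709 and 5312 Ccl2 UMIs. An unnamed subcluster led by Mmp3 and Egfl6, of 72 GA and 135 control cells, held 4639 and 7224. High Ccl2 was thus not confined to the named subsets. Multilineage progenitor-like cells held Ccl2 at 144 and 115 CPM and Ccl8 at 1.28 and 5.08 CPM, and fibroblastic progenitor-like cells held Ccl2 at 36.6 and 36.8 CPM. In the osteoblast-like subcluster led by Bglap, Ccl2 was at 6.60 and 4.38 CPM. Another subcluster named by the osteoblast markers, of 15 GA and 32 control cells with Ibsp and Ostn among its leading genes, held Ccl2 at 278 and 185 CPM and Ccl7 at 342 and 232 CPM. It held 148 and 293 Ccl2 UMIs, against 18 and 10 in the whole osteoblast-like class. Most of them were thus in cells of the mesenchymal-like class.

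Over mesenchymal-lineage cells, Ccl8 stood at 161 CPM in GA and 91.2 CPM in control, a log2 ratio of 0.82 (0.78 to 0.86). Ccl7 had a ratio of 0.40 (0.38 to 0.43) and Ccl2 of 0.08 (0.06 to 0.10). At equal subcluster shares they were 0.50, 0.32 and 0.03. Ccl8 was higher in GA in all 7 subclusters with at least 200 UMIs, with a median log2 ratio of 0.71 and the interval above 0 in 5, and Ccl2 in 6 of 13. The remaining genes lay at 1.02 to 6.53 CPM in these cells.

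Dendritic-like cells, 180 in GA and 340 in control, held Ccl6 at 828 CPM in GA and 370 CPM in control, a log2 ratio of 1.16 (1.08 to 1.24), and Ccl9 at 895 and 444 CPM, a ratio of 1.01 (0.94 to 1.08). Their Ccr2 ratio was 0.50 (0.42 to 0.59) and their Ccr1 ratio -0.36 (-0.54 to -0.18). Over 5737 genes in this class the 10th and 90th percentiles were -0.35 and 0.365. Dendritic-like cells were not split into subclusters, so whether their chemokine and receptor ratios went with the make-up of the class was not tested. In T- or NK-like cells Ccr2 had a ratio of -0.60 (-0.78 to -0.43). Osteoclast-like cells, only 30 in GA, had a Ccr1 ratio of -0.64 (-0.84 to -0.45). Progenitor-like cells held Ccr2 at 75.4 and 76.7 CPM. Ccl2 was at 9.84 CPM in GA and 21.2 CPM in control there, a log2 ratio of -1.105 (-1.435 to -0.77). A cluster of 155 GA and 183 control cells named by pericyte markers also held macrophage genes (Cd5l at 647 and 402 CPM, C1qa at 1950 and 981 CPM) and was shallow, with 2167 and 3550 UMIs per cell. Its chemokine levels, such as Ccl2 at 778 and 513 CPM, are not read as those of pericytes. With at least 200 UMIs there, Ccl3, Ccl4, Ccl6 and Ccl7 were past 2-fold higher in GA. Their log2 ratios were 2.97, 3.59, 1.97 and 1.235, with Ccl2 at 0.60, beside a 90th percentile of 0.82 over 2751 genes. A Ccl3 UMI was seen in 9.68% of GA and 10.9% of control cells, and a Ccl4 UMI in 12.3% and 9.84%. Within this cluster, cells with 0 or 1 of Cd5l, Fcna and Spic held Ccl2 at 1463 CPM in GA and 603 CPM in control. Cells with 2 or 3 of these genes held Ccl2 at 104 and 158 CPM. Ccl8 went the other way, at 58.3 and 6.92 CPM in the former cells and 96.2 and 60.6 CPM in the latter. Which cell type carried these transcripts was not tested.

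The genes with the most similar pattern were named by a fixed rule, the 3 highest Pearson r of log2(CPM + 1) over the same 22 points among 15318 genes. Ccl2 was closest to Gm17268, Ccl7 and Gm31522 (0.976 to 0.963), Ccl7 to Ccl2, Anpep and 5033421B08Rik (0.964 to 0.956), and Ccl8 to Chst1, 5033421B08Rik and Ccl7 (0.956 to 0.939). Ccl3 was closest to Tnf, Efhd2 and Lcp2 (0.957 to 0.931) and Ccl4 to Fcer1g, Tyrobp and Cd200r1 (0.974 to 0.959). Ccl6 was closest to Slc11a1, Cd300ld and Nlrp3 (0.968 to 0.961) and Ccl9 to Ms4a6d, Depdc7 and Gm36161 (0.933 to 0.920). Ccr1 was closest to Clec4d, Cd300lb and C5ar1 (0.965 or higher), and Ccr2 was close to Ms4a6b (0.924) and Galnt6 (0.916).

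Of 26 further CC chemokines, receptors and decoy receptors, 16 had at least 200 UMIs over kept cells. Over all cells 1 of the 16 was 2-fold higher in GA and 3 were 2-fold lower, where 3.17% of all genes tested were higher and 6.90% lower, with a median log2 ratio of -0.16 beside -0.08 over all genes. Ccl24 (eotaxin-2), found in macrophage-like cells at 88.7 CPM in GA and 37.7 CPM in control, was the higher one. Ccl17, Ccl19 and Ccr7, genes of mature dendritic cells and lymphoid stroma, were the lower ones, with log2 ratios of -1.22, -1.69 and -1.23. Dendritic-like cells, which held most Ccl17 and Ccr7, numbered 180 in GA and 340 in control, and held Ccr7 at 199 and 411 CPM. Ccl5 was highest in T- or NK-like cells (5189 and 4402 CPM), Ccl22 in dendritic-like cells (280 and 272 CPM) and Ccl12 in macrophage-like cells (72.2 and 55.0 CPM). Ccr8, the receptor for Ccl8, had 10 UMIs in GA and 8 in control in all, of which T- or NK-like cells held 10 and 7. These are too few to compare the libraries. The atypical receptor Ccrl2, which binds chemerin, was at 116 CPM in GA and 314 CPM in control in macrophage-like cells. Further genes with 200 UMIs were Ccl11, Ccl25, Ccl27a, Ccr3, Ccr9, Ackr1 and Ackr4, with log2 ratios over all cells from -0.29 to 0.67. Ccl19, Ccl21a and Ccl27a have more than 1 entry of the same symbol, which were summed.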

How the data were processed

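The authors deposited UMI counts per gene and cell barcode for each library, made with Cell Ranger on mm10 per the labels, and the file headers name version 7.0.1. The study's methods name another version. The counts were read from both matrices (9322 and 8718 barcodes, 182949385 and 214993030 UMIs in GA and control). Following the study's filters, cells with 500 to 140000 UMIs, 200 to 9500 genes and at most 15% mitochondrial UMIs were kept, as were genes found in at least 3 cells for clustering. The doublet caller Scrublet marked 0 GA and 32 control cells and so had not worked; the 660 GA and 538 control cells with the highest scores (0.8% per 1000 barcodes) were removed.

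Clustering (scanpy 1.11.5) used Pearson residuals of 2000 variable genes without CC genes, 50 components, Harmony over the libraries, 15 neighbours and Leiden resolution 1, within lineages again for subclusters. Clusters were named from marker lists, with thresholds set after the data were seen, and 1 of 35 stayed unnamed. UMIs were summed by class and library and given as CPM with exact Poisson intervals, shares with exact Clopper-Pearson intervals, and log2 ratios with exact conditional binomial intervals, all 95%, on genes with at least 200 UMIs. A split of a ratio into shares and levels adds to the whole. The scripts were tested on simulated data. With 1 library per condition no test, p-value or replicate error exists, and a condition cannot be told apart from its library, animals and dissection.

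Named genes were the 9 genes, the other CC genes with 200 UMIs, the 3 genes most like each, and markers. Some of these are not reported here. The genes and lists were chosen with earlier results of these data known. Promoter windows came from RefSeq (GRCm38.p6). Alternatives covered doublets, mitochondrial limit, batch correction, resolution, seed, variable genes, depth, centring, thinning, free RNA and top cells.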

Additional observations from a re-analysis of the deposited data

Results flagged for a closer look

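Ccl9 and Ccr2 each had log2 ratios of GA to control on opposite sides of 0 in 2 cell classes, with both intervals apart from 0 and both ratios beyond 1.5-fold. This counts classes with at least 50 cells in each library and 200 UMIs of the gene. The cluster named by pericyte markers, which also held macrophage genes, is not counted. With it, Ccl2, Ccl3, Ccl4 and Ccl7 would also meet the rule, at 0.60, 2.97, 3.59 and 1.235 there. Ccl2 and Ccl4 were at -1.105 and -0.66 in progenitor-like cells, and Ccl3 and Ccl7 at -0.81 and -1.11 in neutrophil-like cells. Ccl9 had a log2 ratio of 1.01 in dendritic-like cells (895 CPM in GA and 444 CPM in control) and of -0.67 in neutrophil-like cells (9.89 and 15.7 CPM, beside 2.13 and 3.29 CPM in B cell-like cells). Ccr2 had a log2 ratio of 0.99 in macrophage-like cells (446 and 224 CPM) and of -0.60 in T- or NK-like cells (238 and 362 CPM, in 190 and 222 cells). Of the macrophage-like Ccr2 ratio, 0.98 came from subcluster shares of UMIs and 0.01 from levels within subclusters. Dendritic-like cells were not split into subclusters, so the same was not asked of their Ccl9 ratio. Since each condition was 1 library, none of these differences was tested.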

How the results depend on the processing

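The 24 log2 ratios in macrophage-like, neutrophil-like and mesenchymal-lineage cells were recomputed under up to 11 alternatives. 12 kept their direction under all of them and 12 did not, and of the 14 beyond 0.3, 11 kept it. Ccr1 in mesenchymal-lineage cells turned to -0.30 when each cell was thinned to 2000 UMIs, with 7 UMIs left. The number of genes past 2-fold in macrophage-like cells was 1 in place of 0 with doublets kept, a mitochondrial limit of 10%, no batch correction, resolution 2, at least 2000 UMIs per cell, or without the 5 cells with most UMIs. In mesenchymal-lineage cells it was 2 in place of 1 with doublets kept, and 0 when thinned or without the 5 cells with most UMIs. In neutrophil-like cells it was 2 in place of 1 with doublets kept, and 0 without batch correction, centred on the class median, thinned, with free RNA subtracted (where Ccl7 had a ratio of -1.86 but only 154 UMIs, under the minimum of 200), or without the 5 cells with most UMIs. In mesenchymal-lineage cells with free RNA subtracted, Ccr1 also fell under this minimum, so a count of 1 there would not be Ccr1. The ratios of Ccl6 and Ccl9 were then 3.54 and 1.19. Keeping doublets left clusters of 2186 cells unnamed, and the cause of the other changes was not tested. Among classes with at least 50 cells in each library, the highest class of a gene changed for 1 or 2 of the 9 under some alternatives. These were Ccl2 and, when thinned, Ccl6. The basophil- or mast-like class was too small to be among them, so its lead in Ccl3, Ccl4 and Ccl9 was not covered by this check. No paired analysis was possible because each group is 1 library. Depth limits what can be read of genes under 10 CPM.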
